A study of Mus musculus with 8 samples.

Results

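The endothelial identity genes are 10 genes that mark the inner lining of blood vessels: Cdh5, Pecam1, Esam and Cldn5 of the cell junctions, Tie1, Eng, Robo4 and Emcn of the cell surface, the secreted Vwf and the transcription factor Erg. Each gene was taken from the deposited locus table as the locus carrying its name with the largest summed count over the 8 libraries. The 10 names occurred on 19 of the 48607 loci, and all 10 chosen loci were among the 20506 that passed the filter of 1 FPKM or more in 3 or more libraries. FPKM divide the fragments of a locus by a length for that locus and by the depth of the library. That length need not be the length of the mRNA, so the order of levels between genes is approximate.

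RNA-seq was performed on whole aortas of ApoE-/- mice and NPRC-/-ApoE-/- mice, all fed a Western diet. Both groups lack ApoE, a deletion that raises plasma cholesterol, and the double knockout also carries a CRISPR frameshift in the first exon of the natriuretic peptide receptor C gene Npr3 in every cell of the animal. The NPRC-/- line was made in C57BL/6 mice and crossed to ApoE-/-, and the groups were littermates; the labels give neither age nor sex of the mice sequenced. By title there were 5 libraries of ApoE-/- and 3 of NPRC-/-ApoE-/-, but the genotype entry goes against the title in 4 of the 8: ApoE-/- 4 and 5 are entered as Nprc-/-Apoe-/-, and NPRC-/-ApoE-/- 1 and 2 as Apoe-/-. The level of Npr3 did not separate the groups by either label. It was between 0.62 and 1.69 FPKM in the libraries titled ApoE-/- and between 1.13 and 1.39 in those titled NPRC-/-ApoE-/-, and by entry between 0.62 and 1.69 and between 1.01 and 1.67. A frameshift need not lower the RNA, so this level checks neither label, and each comparison is given by title and by entry. Total counts were between 62969165 and 86693276 per library.

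Endothelial cells form a single layer between the blood and the vessel wall. They hold together through adherens junctions built on VE-cadherin (Cdh5), through PECAM-1 and ESAM at the lateral border and through tight junctions that contain claudin-5. ERG, a factor of the ETS family that binds DNA at a GGAA core, is known to keep many endothelial genes on. In atherosclerosis this layer is where lipoproteins and leukocytes enter the wall.

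The 250 bases before the RefSeq starts of the members are shown because GGAA is the core that ERG and the other ETS factors read. RefSeq windows on GRCm38.p6 were matched by symbol for 6 of the 10 genes, Eng, Emcn, Tie1, Robo4, Cldn5 and Erg, with 8 windows in all, 3 of them of Erg. Cdh5, Pecam1, Vwf and Esam have no window here. The GENCODE genes of Tie1, Robo4 and Emcn start further upstream, within these windows, and the other windows of Erg lie inside the gene, so these hold some annotated gene sequence. The motif was searched as GGAA on both strands, so it reads TTCC where it lies on the other strand. Of all 32841 promoter windows of this length, 93.5% held at least 1 GGAA, with a mean of 2.91. The 4 windows shown are those of Emcn with 4 matches, of Eng with 3, and of Cldn5 and the most upstream start of Erg with 0, each written 5′ to 3′ on the strand of the gene with each match in capitals.
Emcn, chr3:137340828-137341077, plus strand: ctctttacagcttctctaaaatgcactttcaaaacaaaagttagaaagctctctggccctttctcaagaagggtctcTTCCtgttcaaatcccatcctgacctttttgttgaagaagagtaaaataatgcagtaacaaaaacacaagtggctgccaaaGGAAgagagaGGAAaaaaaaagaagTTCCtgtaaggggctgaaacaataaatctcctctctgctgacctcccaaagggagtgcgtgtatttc
Eng, chr2:32646345-32646594, plus strand: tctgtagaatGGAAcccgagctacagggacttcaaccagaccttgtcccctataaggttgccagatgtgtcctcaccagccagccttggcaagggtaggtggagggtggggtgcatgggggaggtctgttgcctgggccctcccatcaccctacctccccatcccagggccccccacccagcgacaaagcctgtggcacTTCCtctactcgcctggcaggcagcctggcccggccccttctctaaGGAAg
Cldn5, chr16:18776597-18776846, plus strand: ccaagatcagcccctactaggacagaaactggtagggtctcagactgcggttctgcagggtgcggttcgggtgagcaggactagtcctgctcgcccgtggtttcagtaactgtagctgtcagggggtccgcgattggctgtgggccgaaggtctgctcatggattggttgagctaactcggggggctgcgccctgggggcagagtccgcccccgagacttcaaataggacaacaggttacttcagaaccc
Erg, chr16:95586594-95586843, minus strand: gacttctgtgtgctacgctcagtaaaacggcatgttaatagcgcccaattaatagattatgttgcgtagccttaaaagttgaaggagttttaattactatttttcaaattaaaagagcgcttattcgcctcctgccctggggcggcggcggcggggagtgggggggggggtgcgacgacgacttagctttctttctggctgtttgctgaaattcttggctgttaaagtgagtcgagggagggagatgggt

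The Cldn5 and upstream Erg windows were thus among the few without this core, which says only that these letters are not in these 250 bases. Tie1 held 7 matches, Robo4 3, and the other windows of Erg 4 and 2. The upstream Erg window and the Cldn5 window were rich in CpG, with 14 and 12 CpG dinucleotides against a median of 6 over all windows, and the Emcn window held 1.

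All 10 genes were detected in every library. Vwf was the highest and Emcn the lowest by mean FPKM, from 32.9 down to 1.56. Vwf lay above Pecam1 and Pecam1 above Cdh5 in 8 of 8 libraries, as did Eng above Esam and Esam above the exons of Erg. The neighbours Cdh5 and Tie1 kept their order in 6 of 8 libraries, Tie1 and Cldn5 in 7, Cldn5 and Eng in 5, the intron locus of Erg (described with Erg) and Robo4 in 5, and Robo4 and Emcn in 7, so these were not separated beyond their spread. In whole tissue, fewer endothelial cells and less RNA per endothelial cell cannot be told apart.

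**Figure D1:**
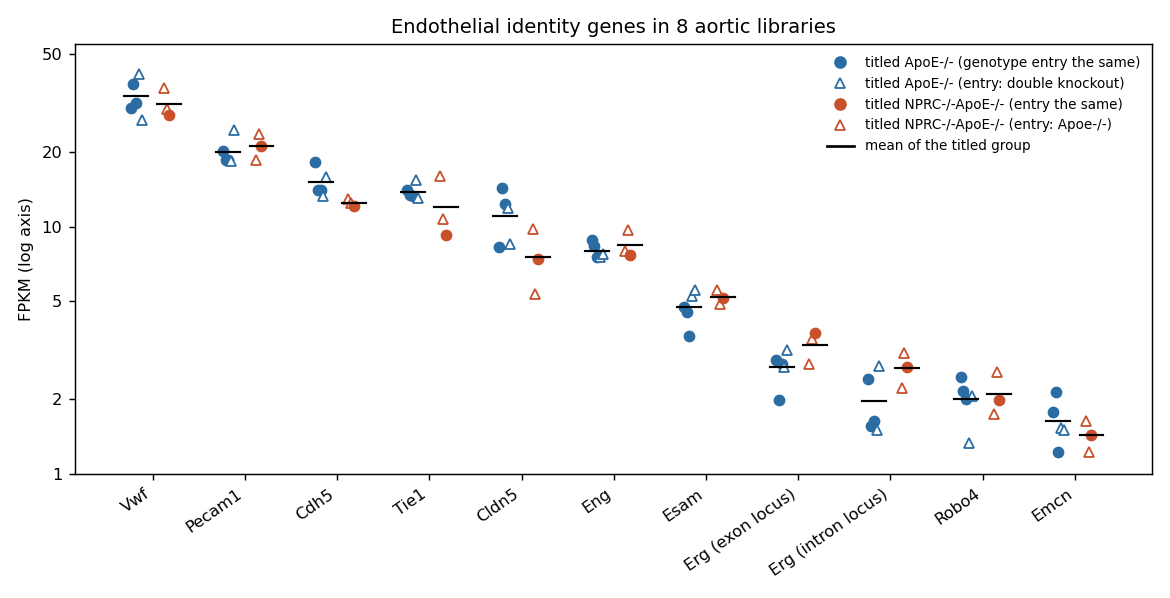
Level of each endothelial identity gene in each library, in FPKM on a log axis, with the libraries in 2 columns by title. Filled circles are libraries whose genotype entry matches the title, open triangles those where it does not, and black lines are means of the titled groups. Cdh5 is the gene whose groups do not overlap, with 13.38 FPKM as the lowest titled ApoE-/- value and 12.98 as the highest titled NPRC-/-ApoE-/- value.

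The difference between genotypes was small for the 10 genes together. By title, 5 had a higher and 5 a lower estimate in NPRC-/-ApoE-/-, with a median log2 fold change of 0.00 beside -0.01 over all loci tested. Erg had an unadjusted p under 0.05 in edgeR's quasi-likelihood test, at a locus that holds no Erg exon (described with Erg), and the other 9 genes did not. Over all tested loci 13.6% had such a p, so 1 of 10 is near the background. None of the 10 was lower with such a p, beside 7.13% of all tested loci, and none had such a p with a fold above 2 or below 0.5, beside 3.47%. The count changed with single libraries: it was 3 without NPRC-/-ApoE-/- 1 (Erg, Tie1 and Cldn5), 2 without ApoE-/- 1 or 5 (Erg and Cldn5), 1 without ApoE-/- 2 (Cdh5) and 0 without ApoE-/- 3, ApoE-/- 4, NPRC-/-ApoE-/- 2 or NPRC-/-ApoE-/- 3. The count over all 20506 loci, 2797 with every library, changed as well. It was 4431, 1332 and 1373 without NPRC-/-ApoE-/- 1, 2 and 3. Without ApoE-/- 1 to 5 it was 2727, 2086, 2109, 2097 and 3844. None of the 10, and 0 of the 20506 loci (2797 unadjusted), had a Benjamini-Hochberg adjusted p under 0.05 by title in edgeR; DESeq2 gave 650 such loci, with none of the 10 among them. By entry, 3 estimates were higher and 7 lower, with a median of -0.05, and 0 genes had an unadjusted p under 0.05 in edgeR, beside 1.31% of all tested loci, and 0 members in each of the 16 alternatives run by entry.

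**Figure D2:**
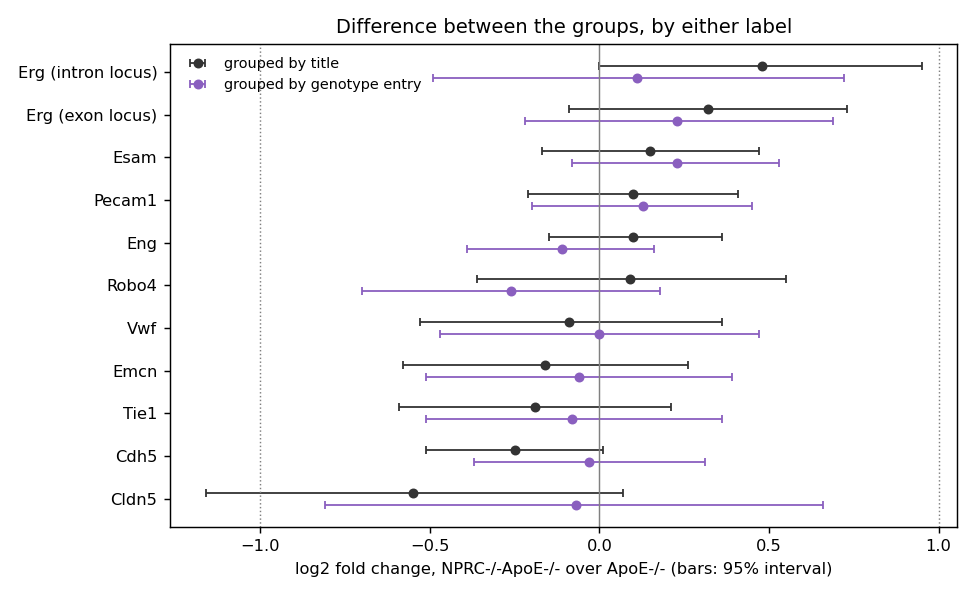
Log2 fold change of each gene, NPRC-/-ApoE-/- over ApoE-/-, from edgeR with its 95% interval, grouped by title (black) and by genotype entry (purple). Dotted lines mark a 2-fold change; of the intervals by title, that of Cldn5 reaches it, from -1.16 to 0.07, and by entry the intervals all include 0.

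Among the junction genes, Cdh5 was the one whose titled groups did not overlap. Cdh5 (chromosome 8, 104101625 to 104144511, plus strand, GRCm38) was at 18.3, 14.09, 14.09, 13.38 and 15.91 FPKM in the libraries titled ApoE-/- 1 to 5, and at 12.98, 12.44 and 12.11 in NPRC-/-ApoE-/- 1 to 3. All 3 double-knockout values lay below all 5 ApoE-/- values, although the gap was narrower than the spread within ApoE-/-. The log2 fold change was -0.25 ± 0.12 (SE, n = 5 and 3), with an adjusted p of 0.38 in edgeR and an exact two-sided permutation p of 0.036, the smallest that 5 against 3 can give. Of all tested loci, 3.69% were without overlap and lower in this way. By entry the difference was -0.03 ± 0.15, and the groups overlapped for Cdh5 as for the other 9 genes, beside 1.2% of all tested loci without overlap.

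Claudin-5 of the tight junction varied most of the 10 genes and had the lowest estimate. Cldn5 (chromosome 16, 18776847 to 18778262, a gene of 1 exon) was at 8.27, 14.3, 12.39, 11.97 and 8.52 FPKM in ApoE-/- 1 to 5 and at 9.83, 5.32 and 7.43 in the double knockout. ApoE-/- 1 and 5 lay in the range of the double knockout, so the groups overlapped. The log2 fold change was -0.55 ± 0.27 with an adjusted p of 0.41 in edgeR, and its 95% interval of -1.16 to 0.07 includes both no change and a fall of 2-fold. It was -0.32 without NPRC-/-ApoE-/- 2 and -0.76 without NPRC-/-ApoE-/- 1. By entry it was -0.07 ± 0.33.

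The remaining junction genes differed by less than their spread. Pecam1, the adhesion receptor PECAM-1 (chromosome 11, 106654217 to 106750628, minus strand), was at 20.32, 18.62, 18.7, 18.5 and 24.68 FPKM in ApoE-/- 1 to 5 and at 18.6, 23.69 and 21.16 in the double knockout, where ApoE-/- 5 was the highest of all. Its log2 fold change was 0.10 by title (95% interval -0.21 to 0.41) and 0.13 by entry. Esam shares its assembled locus with the next gene Vsig2, an adhesion molecule of the same superfamily, so that reads of the pair are summed. That locus was at 4.74, 4.5, 3.62, 5.25 and 5.57 FPKM in ApoE-/- and at 5.53, 4.87 and 5.13 in the double knockout, with a log2 fold change of 0.15 by title and 0.23 by entry. ApoE-/- 3 was the lowest library for it and the groups overlapped by either label.

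Of the surface receptors, none passed the test by either label. Tie1, the orphan partner of the angiopoietin receptor TEK, was at 14.11, 13.5, 13.3, 15.43 and 13.05 FPKM in ApoE-/- 1 to 5 and at 16.08, 10.77 and 9.29 in NPRC-/-ApoE-/- 1 to 3. The double-knockout libraries held both the highest and the lowest values, which gives a SD of 3.57 FPKM beside 0.95 in ApoE-/-. Without NPRC-/-ApoE-/- 1 the log2 fold change of Tie1 moved from -0.19 (edgeR adjusted p = 0.64) to -0.43 (adjusted p = 0.15), and without NPRC-/-ApoE-/- 2 or 3 it was -0.09 or -0.05. By entry the log2 fold change of Tie1 was -0.08 ± 0.19. Eng, the TGF-β co-receptor endoglin, was the steadiest of the genes, at 8.84, 8.39, 7.52, 7.52 and 7.78 FPKM in ApoE-/- and 7.98, 9.7 and 7.72 in the double knockout. Its log2 fold change was 0.10 by title and -0.11 by entry, so even its sign depended on the label.

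Robo4, a guidance receptor that stabilizes vessels, was at 2.47, 2.17, 2.0, 1.33 and 2.07 FPKM in ApoE-/- 1 to 5 and at 1.75, 2.58 and 1.98 in the double knockout. Its log2 fold change was 0.09 ± 0.20 by title and -0.26 ± 0.19 by entry, again with opposite signs and neither past the test. Emcn, the sialomucin endomucin of veins and capillaries, was at 1.78, 2.14, 1.23, 1.53 and 1.51 FPKM in ApoE-/- and at 1.63, 1.23 and 1.44 in the double knockout. It was the lowest of the 10 genes by mean level. Its estimates of -0.16 ± 0.19 by title and -0.06 ± 0.20 by entry were within their errors.

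Vwf, the von Willebrand factor that endothelial cells store and secrete and that captures platelets, had the highest mean FPKM of the members. It was at 30.17, 37.96, 31.86, 41.6 and 26.99 FPKM in ApoE-/- 1 to 5 and at 36.42, 29.9 and 28.3 in the double knockout. ApoE-/- held both the highest and the lowest library. The log2 fold change was -0.09 ± 0.20 by title and 0.00 ± 0.21 by entry, and the 95% interval by title of -0.53 to 0.36 excludes a change of 2-fold in either direction. Platelets carry VWF protein. The summed level of 6 platelet markers was between 139.5 and 152.9 CPM in the titled ApoE-/- libraries and between 119.9 and 140.7 in the double knockout. Of these markers, Itga2b shares its assembled locus with Gpatch8 and Gp1bb with Sept5, so the sum is not of platelet genes alone.

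Erg was the gene for which the choice of locus mattered. The locus with the largest summed count under its name spans 95418106 to 95456531 of chromosome 16 on the plus strand, opposite to Erg, and lies wholly in an Erg intron between the exons that end at 95409952 and start at 95459228. It overlaps 0 exons. The annotated exons, 21 of them, belong to another locus at 95359169 to 95586593 on the minus strand, and both are given. The library protocol marked strand, but whether the counting used strand is not given in the sources used here. Reads of a locus in an intron and reads of unspliced Erg RNA cannot be told apart. The exon locus was at 2.89, 1.98, 2.77, 2.71 and 3.18 FPKM in ApoE-/- 1 to 5 and at 2.77, 3.51 and 3.71 in NPRC-/-ApoE-/- 1 to 3. The intron locus was at 2.42, 1.56, 1.63, 1.5 and 2.74 FPKM and at 2.22, 3.08 and 2.71.

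At either locus the titled groups overlapped. The log2 fold change of the exon locus was 0.32 ± 0.18 (edgeR adjusted p = 0.45, exact permutation p = 0.18) and that of the intron locus 0.48 ± 0.21 (adjusted p = 0.36, exact permutation p = 0.11). The edgeR p of the intron locus before adjustment was just under the threshold of 0.05, and with the exon locus 0 of the 10 genes had an unadjusted p under 0.05. Of all tested loci 6.51% had such a p and were higher in the double knockout. By entry the differences were 0.23 ± 0.20 and 0.11 ± 0.27.

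More loci of this kind carried the names of Erg and Pecam1. Besides the locus with the exons, Erg had 5 and Pecam1 had 4 loci that overlap no exon of the gene. All 4 of Pecam1 and 3 of the 5 of Erg were on the opposite strand. By title, all 9 had a higher estimate in the double knockout, with a median log2 fold change of 0.56. Of the 5388 tested loci with a gene name and no annotated transcript, 3405 had a higher estimate. Of the 9, 5, all of Erg, had an unadjusted p under 0.05 (edgeR, none with an adjusted p under 0.05). Of the 5388, 9.56% had such a p and were higher. The highest estimate of the 9 was 0.94 ± 0.31. By entry the median of the 9 was 0.34 and none of them had a p under 0.05. These 9 loci share 2 genes and are not independent of each other.

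The summed count of these loci relative to the exon locus differed between libraries. For Erg the ratio was 3.873, 3.784, 3.35, 3.109 and 4.301 in ApoE-/- 1 to 5 and 4.052, 5.123 and 4.241 in the double knockout, so more counts carrying the name Erg fell on introns than on the locus of the exons in every library. For Pecam1 it was 0.143, 0.09, 0.057, 0.086 and 0.108, and 0.106, 0.121 and 0.139. The groups overlapped for both genes. Over all named loci that hold no annotated transcript, the share of the count of a library was 16.22, 12.6, 11.93, 11.5 and 16.45% in ApoE-/- 1 to 5 and 13.79, 17.38 and 15.96% in the double knockout, so that NPRC-/-ApoE-/- 2 was the highest and ApoE-/- 4 the lowest for this share as for the Erg ratio. The 5388 such loci that were tested had a median log2 fold change of 0.12 by title, and 9.56% had an unadjusted p under 0.05 and were higher. The part of this shift in the values of Erg was not tested.

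**Figure D3:**
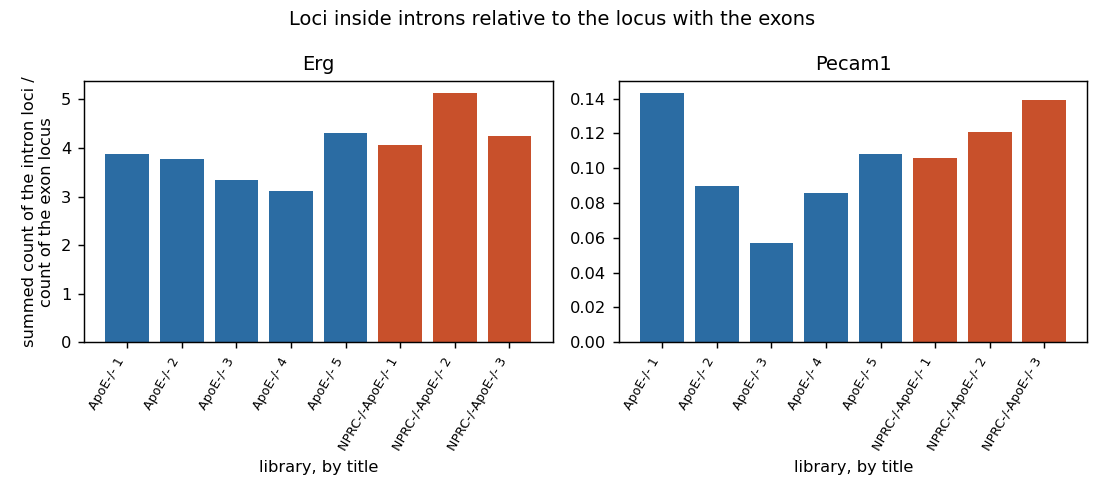
Ratio of the summed count of the loci inside introns to the count of the locus with the exons, per library by title, for Erg (5 intron loci) and Pecam1 (4 intron loci), on linear axes from 0. NPRC-/-ApoE-/- 2 has the highest Erg ratio at 5.123, and ApoE-/- 4 the lowest at 3.109.

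The 10 genes did not move together from library to library. Their SD of log2 CPM over the 8 libraries ranged from 0.11 for Eng to 0.48 for Cldn5, with a median of 0.24 beside 0.34 over all tested loci. Over the 45 pairs, with Erg at its exon locus, the Pearson correlation across the 8 libraries was positive in 20 and negative in 25, with a median of -0.20. An unadjusted permutation p under 0.05 was found for 6 of the 45 pairs, and after adjustment over the 45 the smallest was 0.28 for r. Pecam1 and Erg had the highest r, 0.78 (exact permutation p = 0.011, Spearman's rho 0.93 with p = 0.0022, adjusted p 0.28 and 0.10), and 0.9 without the 2 libraries farthest from the median of Pecam1. Vwf and Cldn5 had r = 0.70 (exact permutation p = 0.049, rho 0.67, adjusted p = 0.28) and 0.8 without 2 libraries chosen in the same way. Pecam1 and Emcn ran in opposite directions, with r = -0.74 (exact permutation p = 0.028, rho -0.86, adjusted p = 0.28), which fell in size to -0.57 without 2 libraries, and Emcn and Erg, with r = -0.76 (exact permutation p = 0.042, rho -0.76, adjusted p = 0.28), to -0.22. The libraries of both titles were pooled in these pairs.

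**Figure D4:**
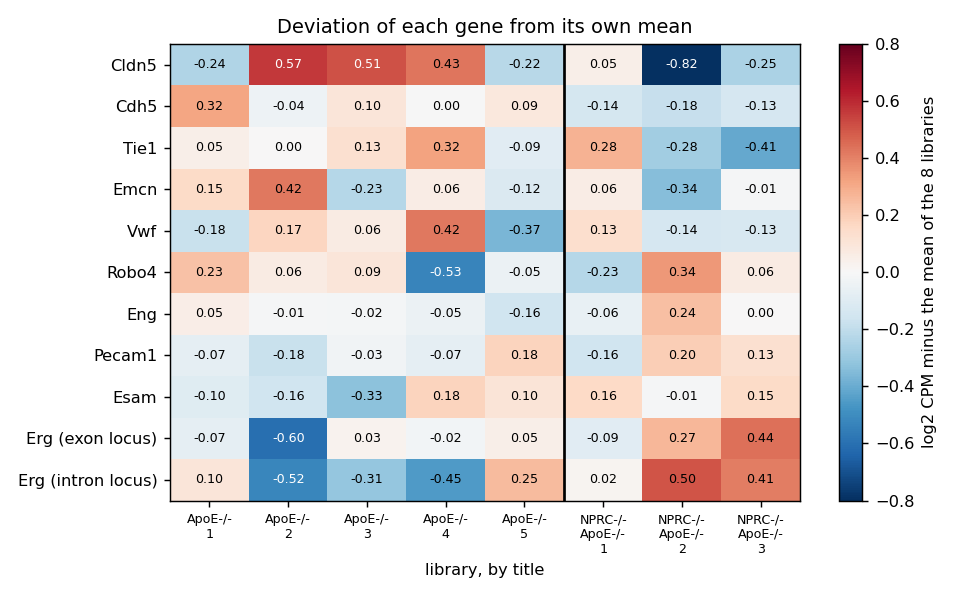
Log2 CPM of each gene in each library minus the mean of the gene over the 8 libraries, with red above and blue below that mean and the line separating the titles. NPRC-/-ApoE-/- 2 shows the mix of directions, at the bottom for Cldn5 and at the top for Eng and Robo4.

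The genes whose level most resembled the mean profile of the 10 members, here with Erg at its intron locus, were named from 14561 gene symbols. The members did not move together, so this mean is not a profile that they share. Over the 8 libraries, 3 had a Pearson r above 0.9 with that profile: Klhl20 (0.95), which encodes an adaptor of a ubiquitin ligase, Hexdc (0.922), a hexosaminidase, and Alkbh1 (0.91), a dioxygenase. They were followed by Gm6755, Gm43963, Gm5812, Slc6a7, Timp3 (0.855), an inhibitor of metalloproteinases, Itih4 and AF357399 (0.832). None belongs to a list of endothelial genes used here, and with 8 libraries and this many genes such values are a description.

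A wider list of 24 endothelial genes was tested in full. By title the median log2 fold change was -0.07, with 11 higher and 13 lower estimates, and 2 had an unadjusted p under 0.05 in edgeR, beside 13.6% of all tested loci. Flt1, a receptor and decoy for VEGF, was higher by 0.39 ± 0.16 (adjusted p = 0.33), and Mmrn2, a matrix protein of the endothelium, was at -0.32 ± 0.14. Of the most abundant, Plvap, the diaphragm protein of fenestrae and caveolae, was at 22.05 FPKM with a log2 fold change of -0.47 ± 0.22. S1pr1, a sphingosine phosphate receptor that tightens the barrier, was at 16.23 FPKM with -0.30 ± 0.14, Ptprb, a phosphatase that acts on TEK, at 11.41 with 0.05 ± 0.16, and Tek at 9.28 with -0.05 ± 0.13. Nos3 falls outside the rule for named genes and was chosen after its values were seen. Nos3, the endothelial nitric oxide synthase, was at 8.07 FPKM with -0.12 ± 0.17 by title and 0.13 ± 0.17 by entry. By entry Flt1 was at 0.04 ± 0.21, Mmrn2 at 0.28 ± 0.15 and Plvap at -0.03 ± 0.27. S1pr1 was at -0.06 ± 0.18, Ptprb at -0.02 ± 0.17 and Tek at 0.09 ± 0.13 by entry. None of the 24 had an unadjusted p under 0.05 by entry in edgeR, beside 1.31% of all tested loci. The count of 2 by title was 6 without NPRC-/-ApoE-/- 1, 0 without NPRC-/-ApoE-/- 2 and 1 without ApoE-/- 2, 3 or 4 or NPRC-/-ApoE-/- 3. Over all 20506 tested loci the count by title, 2797 with every library, moved in the same directions. It was 4431 without NPRC-/-ApoE-/- 1, 1332 without NPRC-/-ApoE-/- 2 and 1373 without NPRC-/-ApoE-/- 3. Without ApoE-/- 2, 3 and 4 it was 2086, 2109 and 2097.

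None of the 14 endothelial transcription factors had an unadjusted p under 0.05 by title or by entry, with medians of -0.13 and -0.16. Over all tested loci 13.6% had such a p by title and 1.31% by entry, so a count of 0 in a short list says little, above all by entry. The most abundant were Foxc2 (11.73 FPKM, log2 fold change 0.18 ± 0.25), a forkhead factor, and Sox18 (9.22 FPKM, -0.15 ± 0.27), a SOX factor of vessel development. Next were Nr2f2 (5.80 FPKM, 0.28 ± 0.21), which gives venous identity, and Ets2 (4.51 FPKM, -0.03 ± 0.19), of the ETS family as Erg is. By entry Foxc2 was at 0.18 ± 0.25, Sox18 at -0.16 ± 0.28, Nr2f2 at 0.00 ± 0.24 and Ets2 at -0.28 ± 0.17. The FPKM are levels in whole aorta, which do not tell the cell type that holds the RNA. Arterial genes such as Gja4 and Dll4, 7 in all, had lower estimates by title in 7 of 7, with a median of -0.16, but 0 had an unadjusted p under 0.05, and by entry 4 were lower and 3 higher. Over all tested loci 10434 of 20506 were lower by title. Sox17 and Bmx are also in the lists above. Dll4 (-0.50 ± 0.22, by entry -0.37 ± 0.25) and the factor Elk3 (-0.21 ± 0.11, by entry -0.05 ± 0.14) had lower titled groups without overlap, as 3.69% of all tested loci did. Of 6 lymphatic genes 5 were tested and none had such a p by either label.

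Of 18 partners of the members 14 were tested, and by title 2 had an unadjusted p under 0.05, 1 in each direction, a share near the 13.6% of all tested loci. Slit3, a ligand of ROBO receptors, was higher at 0.46 ± 0.15 (edgeR adjusted p = 0.29), and its titled groups did not overlap, as in 3.72% of all tested loci that were higher. Acvrl1, the BMP receptor ALK1 to which endoglin is co-receptor, was at -0.40 ± 0.15 (edgeR adjusted p = 0.32). The catenins that bind VE-cadherin did not pass the test, with Ctnnb1, β-catenin, at 73.67 FPKM and -0.25 ± 0.21 and Ctnna1, α-catenin, at 18.66 FPKM and 0.07 ± 0.12. Tgfbr2 (19.35 FPKM, -0.27 ± 0.17) and Bmpr2 (17.69 FPKM, -0.01 ± 0.12), type II receptors of the TGF-β family, did not either. By entry Slit3 was at 0.01 ± 0.23, Acvrl1 at 0.10 ± 0.20 and Ctnnb1 at 0.05 ± 0.24. Ctnna1 was at 0.13 ± 0.13, Tgfbr2 at -0.11 ± 0.19 and Bmpr2 at 0.08 ± 0.13 by entry. With that label 0 of the 14 had an unadjusted p under 0.05, beside 1.31% of all tested loci.

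Of 6 genes of capillary endothelium, 1 had an unadjusted p under 0.05 by title, beside 13.6% of all tested loci. It was Aplnr, the apelin receptor, named after its values were seen. Its level was 3.57, 1.76, 2.98, 1.75 and 2.8 FPKM in ApoE-/- 1 to 5 and 1.13, 0.52 and 0.41 in the double knockout. All 3 double-knockout libraries lay below all 5 of ApoE-/-, as in 3.69% of all tested loci, and the log2 fold change was -1.88 ± 0.38 (edgeR adjusted p = 0.22). By entry it was -0.28 ± 0.68. The list as a whole had a median of 0.03 by title.

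The summed level of the endothelial genes overlapped between the titled groups. The 10 members, with Erg at its intron locus, summed to between 1299 and 1599 CPM in the libraries titled ApoE-/- and to between 1375 and 1440 in the double knockout. By entry these ranges were 1341 to 1440 and 1299 to 1599. Vwf made up 38.5 to 53.9% of the sum in ApoE-/- and 41.6 to 49.0% in the double knockout, and without Vwf the sums were 690.1 to 799.7 and 734.0 to 819.5 CPM. Smooth muscle markers summed to between 6594 and 8734 CPM and to between 8436 and 16160. In edgeR, 9 of these 10 had an unadjusted p under 0.05 and were higher, beside 6.51% of all tested loci. Macrophage markers summed to between 1665 and 4830 CPM and to between 1044 and 2432. Of these, 6 of 10 had such a p and were lower, beside 7.13% of all tested loci. Cd68 of this list shares its assembled locus with other genes, among them Senp3 and Eif4a1, so the sum is not of macrophage genes alone. For fibroblast markers the sums were 4972 to 13850 and 3187 to 6669 CPM. Of these 10, 9 had a lower estimate, and 2 had such a p and were lower. No marker of these 3 lists had an adjusted p under 0.05 by title, and none was at 0 in a library. By entry the medians of the 3 lists were 0.17, -0.17 and -0.07, with 0 calls. The CPM are relative to a scaled size of each library (TMM), and these lists moved beside the endothelial values by title. Their part in the estimates for Cdh5, Cldn5 and Erg was not tested.

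**Figure D5:**
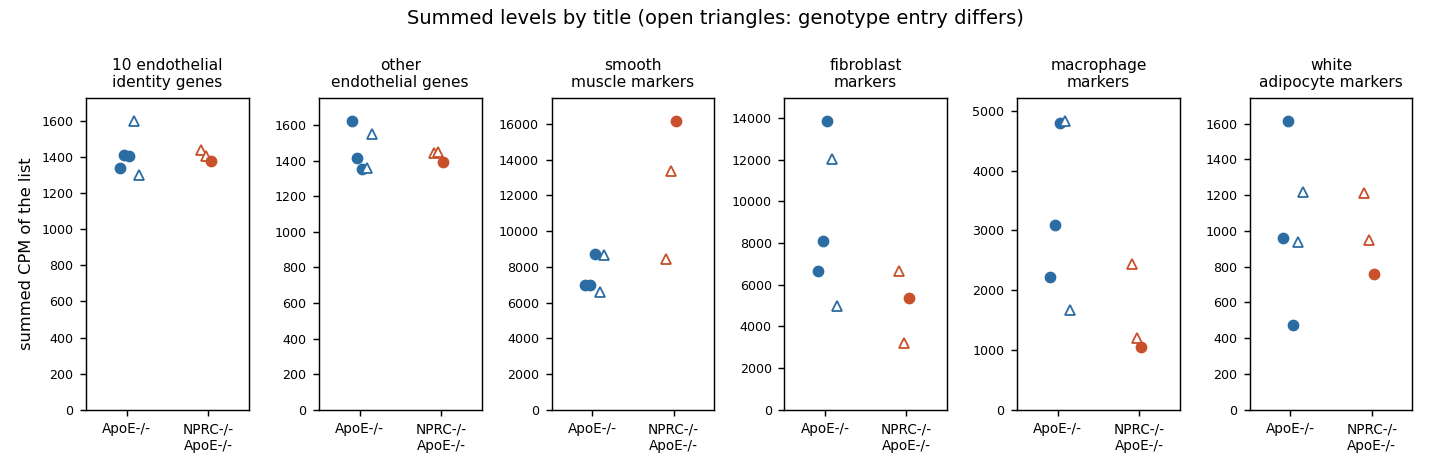
Summed CPM of the 10 endothelial identity genes, of 24 other endothelial genes and of markers of 4 other cell types, per library by title, on linear axes from 0. Open triangles are libraries whose genotype entry differs from the title; the endothelial sums overlap between the groups, and for smooth muscle NPRC-/-ApoE-/- 1 lies within the ApoE-/- range at 8436 CPM while the other double-knockout libraries lie above it, up to 16160.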

How the data were processed

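Whole-aorta RNA-seq of 8 libraries was analysed. Per the study's methods, the authors trimmed the reads (cutadapt 1.9 and GRCm38 are in the submitters' processing notes), aligned them by HISAT2 and built loci by StringTie. They deposited the count of each assembled locus as whole numbers without normalization, and also deposited FPKM; how the count was made, and whether it used strand, is not given in the sources used here, although the library protocol, with dUTP in the second strand and its removal, keeps strand. The table had 0 columns of values without a sample.

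The tested loci reached 1 FPKM or more in 3 or more libraries. They were fitted with edgeR 4.0.16 in R 4.3.3 (TMM, quasi-likelihood test, Benjamini-Hochberg over 20506 loci), by title and by genotype entry. Nothing in the labels or methods settles which label holds. The methods describe 5 mice of each genotype, whereas 5 and 3 libraries by title were analysed here. The labels tie no library to an animal, so p-values measure the spread between libraries. Single genes were also compared with exact two-sided permutation tests on log2 CPM (prior count 2). Alternatives were DESeq2 1.42.0, limma 3.58.1 on log2(FPKM + 1) or (FPKM + 0.1), other scalings, other filters, and leaving out each library. Offset 0.1, array quality weights, the replicate block and the 4 libraries with matching labels were run by title only. Named genes were the 10 members; in each of 3 endothelial lists the 4 of highest level and up to 4 with the smallest p under 0.05; and the 10 genes most correlated with the members. Members and lists were chosen with earlier results of these data known.

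The marker lists not described with the results gave these medians of the log2 fold change by title, over the genes tested: pericyte 0.37 (1 of 4 with an unadjusted p under 0.05, higher), lymphocyte -1.73 (1 of 2, lower), platelet -0.41 (0 of 4), white adipocyte 0.03 (0 of 7), brown adipocyte 0.39 (0 of 6), skeletal muscle 1.1 (0 of 3), cardiomyocyte -1.69 (0 of 2) and erythroid -1.15 (0 of 3). Of 4 mesothelial markers 0 were tested. Over all tested loci 6.51% had such a p and were higher, and 7.13% had such a p and were lower. None of these markers had an adjusted p under 0.05 in edgeR by title.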

Additional observations from a re-analysis of the deposited data

Results flagged for a closer look

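The exon locus of Erg was at 5.02 log2 CPM in ApoE-/- 2, far below the other 4 libraries titled ApoE-/- by the gap relative to the range of the group. With 22 groups of 5 libraries checked, 1.1 would be flagged by chance. Without ApoE-/- 2 the log2 fold change of this locus by title was 0.22, beside 0.32 with it.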

How the results depend on the processing

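Counts are of genes with an unadjusted p under 0.05 by title, 1 of the 10 members and 2 of the 24 other endothelial genes, and the median log2 fold change of the members was 0.00. By genotype entry the counts were 0 and 0 and the median -0.05, and with the 4 libraries whose labels agree 0, 0 and -0.11. DESeq2 gave 2 members (Erg and Cdh5) and scaling by total count 0. On log2(FPKM + 1) or log2(FPKM + 0.1), limma gave 1 member, which was Cldn5 and not Erg. Median-ratio size factors and no filter each gave 1 other endothelial gene, and limma on log2(FPKM + 0.1) 4. A mean of at least 5 FPKM, which leaves fewer members to test, gave 0, 0 and a median of -0.05. Array quality weights gave 3 (Erg, Tie1 and Cldn5) and 6. With these weights 5909 of the 20506 loci had such a p, beside 2797 in the main fit and 3423 in DESeq2. They also gave 1168 loci with an adjusted p under 0.05 in limma, with none of the 10 members among them. Leaving out 1 library gave 0 to 3 members, 0 to 6 other endothelial genes and medians of -0.05 to 0.02. The Erg exon locus, an alternative chosen after seeing the data, gave 0 members.

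Estimates within their errors changed sign: Eng to -0.11 by entry and -0.01 with the 4 libraries, Robo4 to -0.26 and -0.07, and Vwf to 0.01 with a mean of at least 5 FPKM. Leaving out 1 library gave -0.04 (without NPRC-/-ApoE-/- 2) to 0.23 for Robo4 and -0.18 to 0.04 (without ApoE-/- 4) for Vwf. The cause was not tested. The count over all loci was between 269 and 5909.

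Libraries with the same number did not deviate together (correlations -0.31, -0.11 and 0.01 over the 3 numbers, none over 0.1), so the numbers are not taken as pairs. With a replicate block over the 6 libraries numbered 1 to 3, the counts were 0 and 1, the median -0.06 and Robo4 -0.07; without the block the same 6 libraries gave 1, 2, -0.06 and -0.05.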
